A study of Mus musculus with 11 samples.

Results

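Genes of the stroma around vessels were followed through RNA sequencing libraries of CD31hi EMCNhi endothelial cells (ECs) from mouse bone marrow. The 10 members were taken from a count table of 27179 rows, each keyed by an Entrez gene ID, as the rows whose ID carries a chosen mouse symbol. They comprise 4 fibrillar collagen genes (*Col1a1*, *Col1a2*, *Col3a1* and *Col5a1*), 2 osteolineage genes (*Bglap* and *Lepr*) and 4 mural genes (*Pdgfrb*, *Rgs5*, *Acta2* and *Cspg4*). Of the 10, 9 held enough reads to be tested, and *Bglap* did not have a read in any of the 11 libraries.

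All animals were young adult BALB/c mice. The met group (3 libraries) is marrow infiltrated by RFP-labelled 4T1.2 cells, a BALB/c mammary tumour line that spreads to bone. The non-met group (6 libraries) is neighbouring marrow of the same burdened bones with no RFP signal, and the control group (2 libraries) is marrow of healthy, age-matched mice. Infiltrated and tumour-free marrow were thus both taken from tumour-burdened animals. The libraries came from 6 mouse pools, 2 of control mice and 4 of burdened mice. A further control pool that the methods mention is not analysed here. Burdened pools held 1 to 4 animals each, and the size of the control pools is not given in the sources used here. Non-met 1 and 5 came from burdened pool 1. Pool 2 was the source of met 1 together with non-met 2 and 6. Met 2 shares pool 3 with non-met 3, as met 3 shares pool 4 with non-met 4. Libraries of 1 pool share their animals, so P values measure the spread between libraries and not only between animals.

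Fibrillar collagens are the rod-shaped proteins of bone, tendon and skin. A type I molecule joins 2 chains encoded by *Col1a1* to 1 chain encoded by *Col1a2*, type III is a homotrimer of the *Col3a1* product, and type V, to which *Col5a1* contributes, starts fibrils. They are made chiefly by osteoblasts, fibroblasts and reticular stroma. Mural cells, the pericytes of capillaries and the smooth muscle of arterioles, wrap the endothelium from outside. In marrow, cells that carry the leptin receptor *Lepr* lie on sinusoids and supply CXCL12 and stem cell factor to blood-forming cells. None of these is a gene that defines endothelium, so the values below describe the RNA of the sorted fraction, and in bulk libraries fewer cells of a type and less RNA per cell cannot be told apart.

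Total counts ran from 733342 (non-met 4) to 19539761 (control 1). The lowest total of a met library was 2547520, and non-met 4, 5 and 6 were the 3 shallowest libraries. A level of 3 reads, taken as the floor of detection for counting error, was 0.157 to 0.614 CPM (counts scaled to a common library total) in the controls, 0.404 to 4.76 CPM in non-met and 0.352 to 1.22 CPM in met. All 10 endothelial markers exceeded 3 reads in every library, and their summed level was 9220 to 12901 CPM in the controls, 9595 to 13403 in non-met and 12144 to 16249 in met. Among them *Pecam1*, which encodes CD31, was at 2120 to 3237 CPM in met, 1111 to 2035 in non-met and 1124 to 1332 in control, and *Emcn*, which encodes endomucin, was at 308 to 1357 CPM over all libraries. *Cdh5*, the cadherin of endothelial junctions, was at 1008 to 2045 CPM. *Ptprc*, which encodes the CD45 used to gate out blood cells, was at 0 reads in 9 libraries and at 13.3 and 38.6 CPM in control 1 and met 2. The summed level of 8 granulocyte markers was 333 to 5168 CPM in non-met, above the 36.2 to 188 CPM in met, and all 8 had a higher mean in non-met than in control. The summed counts of *Krt7*, *Krt8*, *Krt18* and *Krt19*, keratins that also serve here as markers of mammary epithelium, split the libraries into sets. A set of 4 lay below 10 CPM (both controls, non-met 1 and 2) and the other 7 above it, with met 3 just above, at 10.7 CPM. This split was chosen after seeing the data, and whether it follows tumour RNA or preparation was not tested. At this cut the controls lie wholly in one set and the met libraries in the other, so met and control have no library in a common set. A term for the sets in the fit rests on the non-met libraries, which lie in both.

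*Bglap* encodes osteocalcin, the bone matrix protein secreted by mature osteoblasts, and it was at 0 reads in all 11 libraries. The gene lies at chr3:88383495-88384466 (mm10), and its 2 neighbours *Bglap2* and *Bglap3* encode near-identical proteins. Of the 366 windows of 75 bases in its transcript, the length of a sequenced read, 242 (66.1%) occur letter for letter in *Bglap2* or *Bglap3* transcripts. Reads from such windows cannot be assigned to 1 gene, and how they were counted is not given in the sources used here. The stretch below is shown because it is the longest run of the *Bglap* coding sequence, 241 bases from base 32 to base 272 of 288, that *Bglap2* holds letter for letter. Capitals mark the 81 bases that *Bglap3* shares as well (GENCODE transcripts, coding strand, 5′ to 3′).

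Bglap: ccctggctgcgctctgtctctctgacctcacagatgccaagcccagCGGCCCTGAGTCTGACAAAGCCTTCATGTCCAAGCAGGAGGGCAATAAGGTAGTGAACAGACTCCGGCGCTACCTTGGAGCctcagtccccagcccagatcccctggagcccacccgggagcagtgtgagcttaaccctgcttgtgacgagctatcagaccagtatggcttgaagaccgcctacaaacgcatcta

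Across the 3 genes together, the 11 libraries held 1 read, assigned to *Bglap2* in non-met 5, so each of them was at or under the floor in every library. Other osteoblast markers were present in some libraries. The summed level of the 8 osteoblast markers was 0 and 109 CPM in the controls, 6 to 566 CPM in non-met and 0.407 to 55.1 CPM in met. *Bglap* gives no comparison between groups.

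No member passed the test in any of the 3 comparisons. With voomLmFit and Benjamini-Hochberg adjustment over 11948 genes, 0 of 9 members were called for met against non-met, where 0.427% of all genes were called. For met against control 0 of 9 were called against 1.2% of all genes, and for non-met against control 0 of 9 against 0.636%. The edgeR quasi-likelihood test called 0 of 9 members in each comparison (0.134%, 0.0837% and 0.117% of all genes in the same order), as did limma-trend (0.0167%, 0.0753% and 0.067%). DESeq2 called 0 of 7 (2.71%, 1.91% and 2.23%) and gave no adjusted P for *Acta2* and *Cspg4*. At an unadjusted P under 0.05, voomLmFit gave 2 of 9 members for met against non-met (7.24% of all genes), 1 of 9 for met against control (14.1%) and 2 of 9 for non-met against control (17.0%). Nothing is read from counts this small, and a P that misses the threshold does not show that the levels were alike.

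The members' fitted changes were wide. The median difference in mean log2 CPM over the 9 members was 0.87 for met against non-met, -1.32 for met against control and -1.75 for non-met against control. The same median over all genes tested was 0.26, -0.35 and -0.79, so the genes as a whole also lay below the controls on this scale, by less. For met against non-met, 8 of 9 members had a higher group mean in met, as had 56.0% of all genes. Group means were lower than in the controls for 7 of 9 members in met and 8 of 9 in non-met, while 40.3% and 32.4% of all genes had a higher mean than in the controls.

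**Figure D1:**
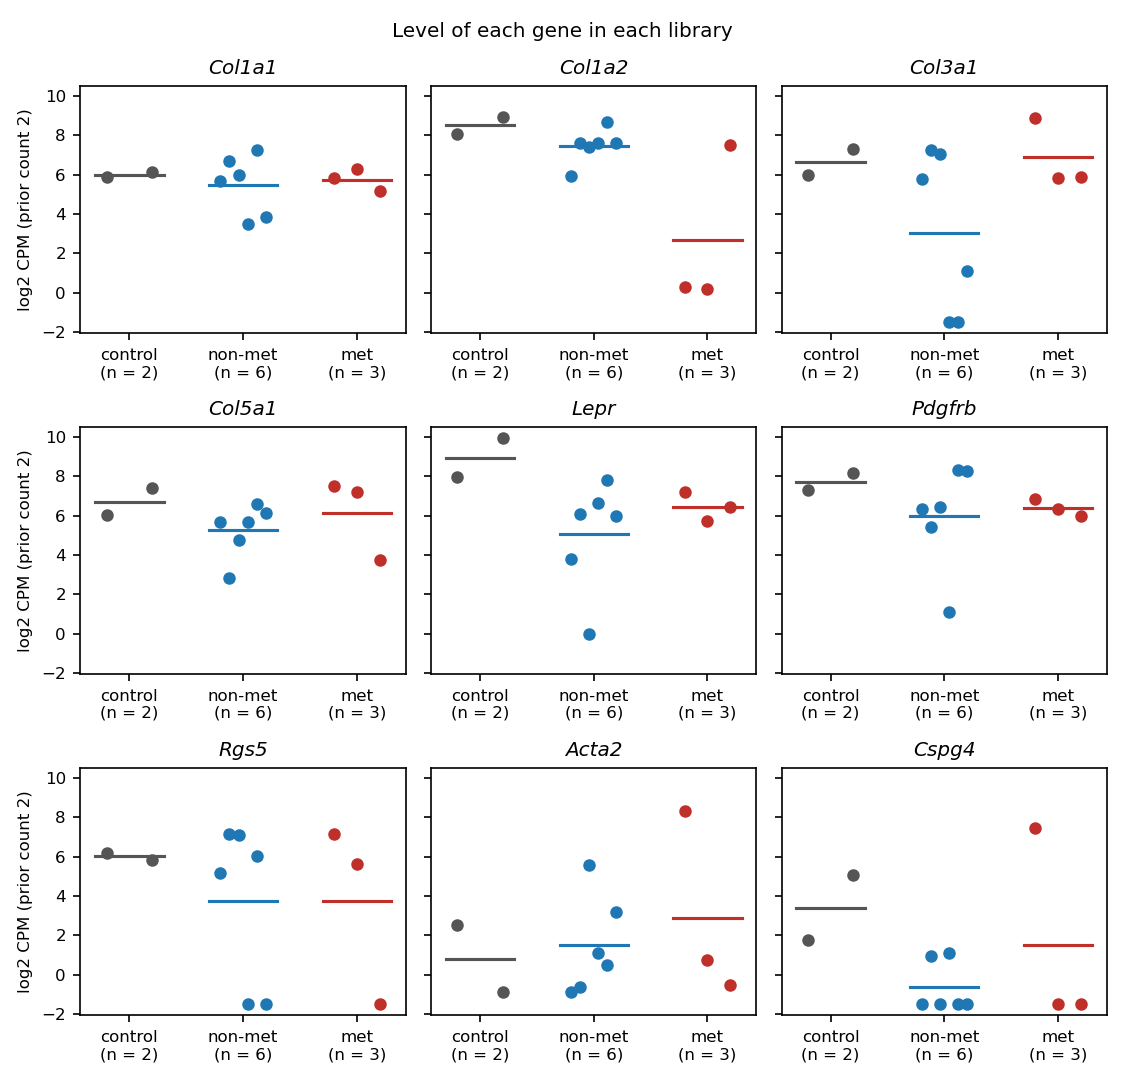
Each panel gives 1 gene, each point 1 library (log2 CPM with a prior count of 2, vertical axis) and each bar the group mean, for control, non-met and met. *Col1a1* stays within 3.49 to 7.25 in all libraries, whereas *Col3a1*, *Rgs5*, *Acta2* and *Cspg4* drop to the value of 0 reads, -1.49, or near it, in some libraries of a group and not in others.

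**Figure D2:**
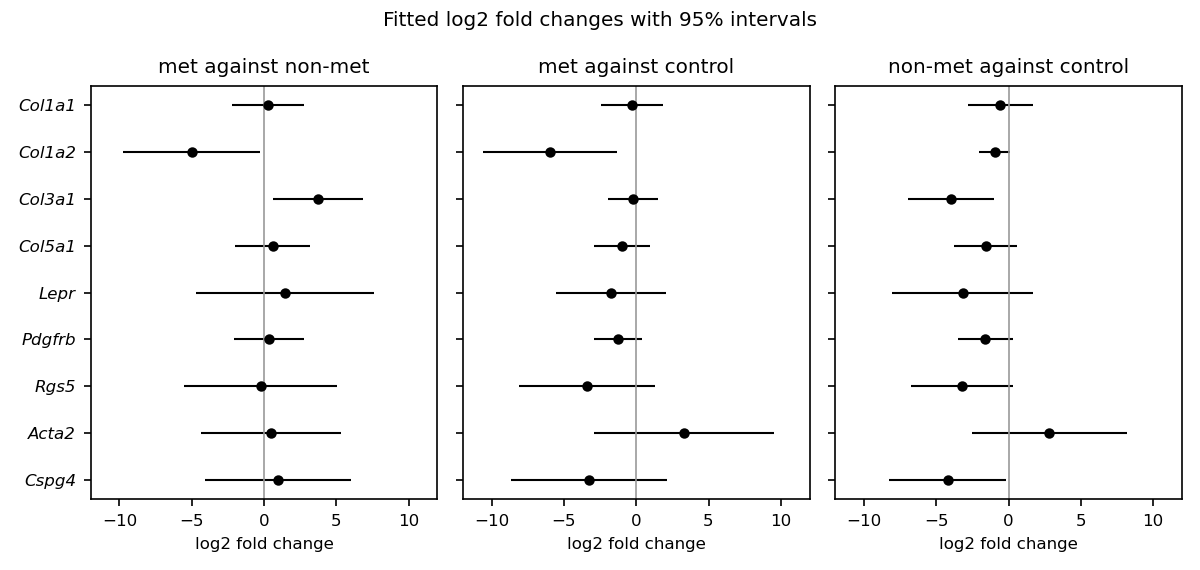
The points are log2 fold changes fitted by voomLmFit and the bars 95% intervals, for 9 genes (vertical axis) in 3 comparisons. The intervals of *Col1a2* in both met comparisons and of *Col3a1* in both non-met comparisons, and that of *Cspg4* for non-met against control, leave out 0 before adjustment, and no adjusted P fell below 0.05.

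The 4 collagen genes were present in the sorted fraction but did not follow each other. *Col1a1* (chr11:94936224-94953042) is the gene of the alpha 1 chain of type I collagen. It was at 61.7 and 80.6 CPM in the controls, at 9.52, 51.1 and 166 CPM (lowest, median and highest) in non-met, and at 51.6, 77.4 and 35.8 CPM in met 1, 2 and 3. The 3 groups overlapped fully, and the low non-met values are those of the shallow libraries 4 and 6, at 6 and 16 reads. The fitted log2 fold change was 0.25 (SE 1.20, voomLmFit adjusted P = 0.979) for met against non-met, -0.30 (SE 1.03, adjusted P = 0.934) for met against control and -0.56 (SE 1.08, adjusted P = 0.759) for non-met against control. Its 95% interval for met against non-met, -2.24 to 2.74, includes large changes in both directions. The sign for met against non-met turned by the quasi-likelihood test (-0.22), DESeq2 (-0.38) and without the 3 shallowest libraries (-0.49), and that for non-met against control turned in the same 3 fits (0.039, 0.10 and 0.20).

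*Col1a2* (chr6:4505618-4541543), the gene of the alpha 2 chain, had the largest fitted change of the 9 members in both comparisons with met. It was at 287 and 567 CPM in the controls and at 59.5, 176 and 442 CPM (lowest, median and highest) in non-met. Met 1 held 2 reads (0.813 CPM) and met 2 held 4 reads (0.753 CPM), at or near the floor of 3 reads, and met 3 held 1608 reads (189 CPM). Met 1 and met 2 are therefore far below every other library, whereas met 3 lies inside the non-met range and below both controls.

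The fitted log2 fold change of *Col1a2* was -5.01 (SE 2.28, voomLmFit adjusted P = 0.664) for met against non-met and -5.96 (SE 2.23, adjusted P = 0.183) for met against control. By an exact two-sided permutation of the libraries, the difference in mean log2 CPM between met and non-met was -4.80 (P = 0.0357; the smallest P of the 84 splits is 0.0119). This is one of 27 such tests and was not adjusted. The size depends on the fit, at -1.70 by the quasi-likelihood test (adjusted P = 0.565), -1.94 by DESeq2 (adjusted P = 0.526) and -2.99 with the mouse pool as a block, a fit of the 9 burdened libraries only (adjusted P = 1.00). Leaving out 1 library moved it between -7.21 (without met 3) and -3.81 (without met 1) for met against non-met, and between -8.15 and -4.82, without the same libraries, for met against control. Over the 22 alternatives to the reported fit, the adjusted P for met against non-met was 0.390 to 1.00. Within the set of 7 libraries with higher keratin counts, the difference in mean log2 CPM was -5.16 (exact permutation P = 0.0571 over 35 splits).

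The mouse pools allowed met and non-met marrow of the same animals to be set side by side. The differences below are in log2 CPM, which, unlike CPM, uses TMM-scaled library sizes. *Col1a2* differed by -7.28 in pool 2, -7.26 in pool 3 and -0.10 in pool 4, each lower in met. In pool 4 the order is the reverse on unscaled CPM, at 189 in met 3 and 173 in non-met 4. *Col1a1* was higher in met in 3 of 3 pools, at 0.54, 0.29 and 1.66, with the non-met libraries of pool 2 averaged. In that pool met 1 (51.6 CPM) lay between non-met 6 (15.3 CPM) and non-met 2 (94.7 CPM). No test was made on 3 pairs. The pool whose *Col1a2* difference is near 0 is that of met 3, the met library with 1608 reads.

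The ratio of the chains shows the split in the met group. Per transcript length (RPKM), *Col1a2* was 1.11 to 16.6 times *Col1a1* in 9 libraries, with 4.26 and 6.44 in the controls and 4.83 in met 3. In met 1 *Col1a1* stood at 127 reads against 2 of *Col1a2*, and in met 2 at 411 reads against 4, which gives *Col1a1* an RPKM 69.4 and 112 times that of *Col1a2*. With *Col1a2* under the floor of 3 reads in met 1 and near it in met 2, the size of these ratios is loose. No 75-base window of either transcript occurs in a transcript of another gene, and no named gene of the table overlaps either locus.

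**Figure D3:**
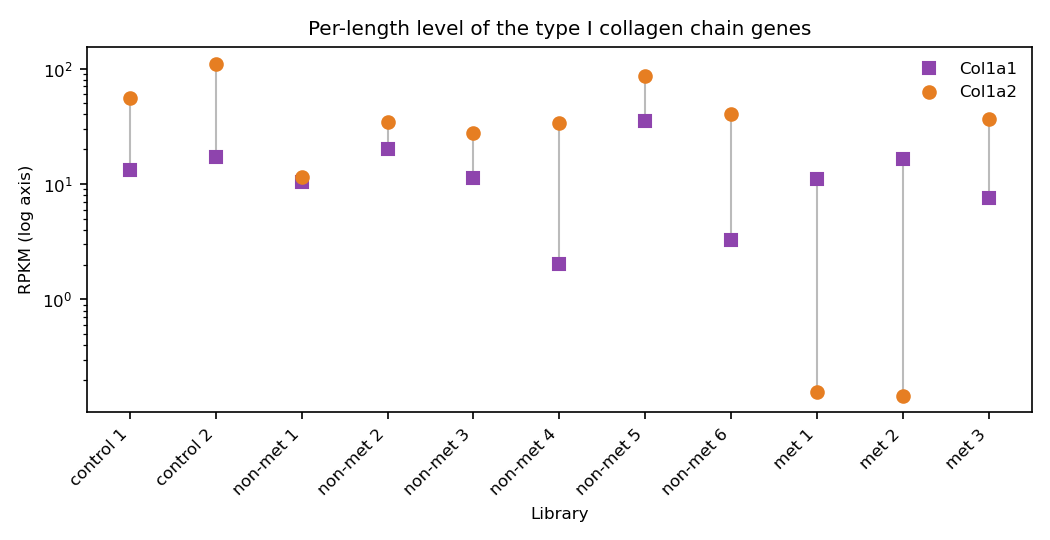
Level per transcript length (RPKM, logarithmic vertical axis) of *Col1a1* (squares) and *Col1a2* (circles) in each library (horizontal axis), joined by a line. *Col1a2* is the higher of the pair in 9 libraries, and in met 1 and met 2 it is at 0.158 and 0.146 RPKM, under *Col1a1* at 11 and 16.4.

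*Col3a1* (chr1:45311538-45349706), the gene of type III collagen, was at 66.4 and 184 CPM in the controls and at 442, 55.7 and 60.4 CPM in met 1, 2 and 3. In non-met it ran from 0 to 141 CPM with a median of 27.3. Non-met 4 and 5 had no read, non-met 6 had 2 reads, and non-met 1, 2 and 3 held 297, 1045 and 430. The 3 libraries without a usable level are the 3 shallowest. Non-met 2 and 3, at 141 and 112 CPM, lie inside the range of the controls and met, and non-met 1, at 52.6 CPM, lies below both controls and just below the lowest met library.

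The fitted log2 fold change of *Col3a1* was 3.73 (SE 1.52, voomLmFit adjusted P = 0.582) for met against non-met and -3.97 (SE 1.44, adjusted P = 0.165) for non-met against control. Without non-met 4, 5 and 6 the first became -0.49 (adjusted P = 0.959) and the second 0.14 (adjusted P = 0.954), so both signs turn on those libraries. Non-met 4 and 6 have the highest sample weights of the reported fit, 1.96 and 1.75, and non-met 5 has 0.84. Over all alternatives the adjusted P ran from 0.358 to 1.00 and from 0.130 to 1.00 respectively. The share of detected genes with only 1 to 3 reads was 21.5% to 35.3% in those 3 libraries and 2.80% to 3.11% in the controls. It was also 30.6% in met 1 and 23.9% in non-met 3, where *Col3a1* was at 442 and 112 CPM. Its part in the *Col3a1* result was not tested. The difference in mean log2 CPM for met against non-met was 3.84 over all libraries and 5.57 within the 7 libraries of higher keratin counts (exact permutation P = 0.167 and 0.114). For non-met against control it was -3.61 over all libraries and -0.14 within the 4 libraries of low keratin counts, 2 against 2.

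*Col5a1* (chr2:27886381-28039510), the gene of a type V chain that starts fibrils, was detected above 3 reads in all 11 libraries. It was at 69.6 and 193 CPM in the controls, at 6.20, 47.5 and 104 CPM (lowest, median and highest) in non-met, and at 167, 147 and 13.3 CPM in met 1, 2 and 3. Met 1 and 2 are above every non-met library and met 3 is below 5 of them, so the groups overlap. The log2 fold change was 0.60 (SE 1.25, voomLmFit adjusted P = 0.947) for met against non-met, -0.97 (SE 0.93, adjusted P = 0.699) for met against control and -1.57 (SE 1.05, adjusted P = 0.408) for non-met against control. Leaving out 1 library moved the first between -0.061 (without non-met 2) and 2.40 (without met 3).

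The wider collagen programme was read from lists of genes that, like the members, were chosen with results of these data known. Of 26 tested genes for folding, secreting, processing and cross-linking collagen, voomLmFit called 0 for met against non-met, 1 lower for met against control (0.511% of all genes were called lower) and 2 lower for non-met against control (0.452%). The list's median difference was 0.43, -0.68 and -0.83 against 0.26, -0.35 and -0.79 over all genes. The genes called, *Loxl1* and *Lox*, encode 2 of the 5 lysyl oxidases in the list, copper enzymes that cross-link collagen and elastin. *Loxl1* was at 88.8 and 124 CPM in the controls, at 0 reads in 3 of 3 met libraries (which allows up to 3 reads) and at 0 to 16.2 CPM in non-met. Its adjusted P was 0.00452 for met and 0.012 for non-met against control. *Lox* was at 56.8 and 289 CPM in the controls and at 0 to 20.7 CPM in non-met (adjusted P = 0.0117). It was at 56.5 CPM in met 2 and at 1 read in each of met 1 and 3. The other 3 were not called, and *Loxl2* was at 20.7 and 60.8 CPM in the controls, 12.9 to 452 CPM in non-met and 4.88 to 142 CPM in met (adjusted P = 0.646 and 0.906 for non-met and met against control). *Loxl3* had its highest level in met 1 (62.6 CPM) and *Loxl4* in met 2 (55.0 CPM).

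These calls of voomLmFit were not made by the quasi-likelihood test, with adjusted P = 0.886 and 0.944 for *Loxl1* and 0.868 for *Lox*, nor with a term for the library sets (adjusted P = 0.344, 0.245 and 0.628). Of 21 alternatives, 15 called *Loxl1* for met and 13 for non-met against control, and 15 called *Lox* for non-met against control. The 2 genes of the list with the highest mean CPM had overlapping ranges, except for *Serpinh1* between non-met and control. *Serpinh1*, the collagen chaperone, was at 432 to 822 CPM in met, 402 to 588 in non-met and 623 to 961 in control. All its non-met libraries were below both controls, an order that 6.25% of all genes share. *Plod1*, a lysyl hydroxylase, was at 387 to 790 CPM in met, 188 to 830 in non-met and 326 to 460 in control. No adjusted P of these 2 genes fell below 0.0952 by voomLmFit.

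Other fibrillar and fibril-associated collagens gave 0 of 9 calls by voomLmFit in each comparison. *Col5a2*, which pairs with *Col5a1*, was at 71.2 to 257 CPM in met, 3.17 to 328 in non-met and 77.9 to 144 in control, and *Col12a1* at 0.117 to 104, 0.261 to 117 and 56.9 to 99.8 CPM. Small proteoglycans that coat fibrils also gave 0 of 6 calls. All 6 had a lower mean in met than in control, where 40.3% of all genes had a higher one. *Bgn*, biglycan, was at 483 and 651 CPM in the controls, 65.4 to 123 CPM in met libraries and 7.66 to 265 CPM in non-met libraries, with both controls above all burdened libraries, as for 3.03% of all genes. Its voomLmFit adjusted P was 0.0856 for met and 0.139 for non-met against control. *Prelp* was at 0 to 43.7 CPM in met, 0.261 to 132 in non-met and 189 to 390 in control (adjusted P = 0.117 and 0.236).

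*Lepr* (chr4:101717137-101815352) encodes the leptin receptor, and of the 9 members it alone had both controls above all 9 libraries of burdened mice. It was at 262 and 1132 CPM in the controls, at 0.522, 65.6 and 242 CPM (lowest, median and highest) in non-met, and at 137, 52.1 and 88.3 CPM in met 1, 2 and 3. Of all genes tested, 3.03% share that order. The non-met low, 2 reads, came from non-met 3.

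The log2 fold change of *Lepr* was -1.75 (SE 1.83, voomLmFit adjusted P = 0.733) for met against control, -3.17 (SE 2.35, adjusted P = 0.450) for non-met against control and 1.43 (SE 2.98, adjusted P = 0.948) for met against non-met. By exact permutation the differences in mean log2 CPM of -2.48 and -3.89 had P = 0.1 and P = 0.143, where 0.1 and 0.0357 are the smallest P that 10 and 28 splits allow. The SD of the 2 controls was 1.41 on the log2 CPM scale, and control 1 has the lowest weight in the fit, 0.43. The highest weights are those of the shallow libraries non-met 4 (1.96) and non-met 6 (1.75), followed by control 2 (1.69). Without control 1 the log2 fold change became -3.64 (voomLmFit adjusted P = 0.0194) for met and -5.18 (adjusted P = 0.00617) for non-met, with the lone control assumed to vary like the other groups. Without control 2 they were -1.65 (adjusted P = 0.399) and -3.16 (adjusted P = 0.115). Over all alternatives the adjusted P ran from 0.0194 to 1.00 and from 0.00617 to 0.899.

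Genes that mark the *Lepr*-positive reticular stroma were also at lower means than in the controls. The group mean was lower for 12 of 12 genes in met and 12 of 12 in non-met, with all libraries below both controls for 6 and 5 of the 12, an order that 14.2% and 6.25% of all genes share. The share of detected genes at 1 to 3 reads moved with that contrast, at 4.00% to 35.3% in non-met libraries and 8.82% to 30.6% in met libraries against 2.80% to 3.11% in control libraries. The mitochondrial share of counts was 5.32% to 6.20% in the controls, 4.17% to 9.41% for met and 7.09% to 19.8% for non-met, and the 8 granulocyte markers summed to 83.0 to 415 CPM in the controls against 333 to 5168 for non-met. The part of each of these in the stromal values was not tested. The list's median difference was -3.16 and -2.79, against -0.35 and -0.79 over all genes. By voomLmFit 1 of 12 was called lower for met (0.511% of all genes) and 1 for non-met (0.452%) against control, and 0 for met against non-met.

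The gene called was *Cxcl12*, whose product is the chemokine that retains blood stem cells in marrow. It was at 3443 and 10089 CPM in the controls, at 598 to 2849 CPM in non-met, and at 1663, 224 and 695 CPM in met 1, 2 and 3. Every burdened library was below both controls. The log2 fold change was -4.07 (SE 0.35, voomLmFit adjusted P = 2.16e-08) for met against control and -3.12 (SE 0.22, adjusted P = 1.6e-09) for non-met against control. The differences in mean log2 CPM were -3.03 and -2.25, with exact permutation P = 0.2 and 0.0357. The smallest P possible is 0.1 and 0.0357, and these P, beyond those of the members, were not adjusted. The quasi-likelihood test called *Cxcl12* in both comparisons (adjusted P = 0.000172 and 4.14e-05), and DESeq2 called it in neither (adjusted P = 0.124 and 0.281). A term for the library sets left both called (adjusted P = 0.00638 and 4.06e-07). Of 21 alternatives, 19 called it for met and 18 for non-met, with adjusted P up to 0.619 and 0.698. *Cxcl12* is also made by endothelium, and these libraries do not separate the sources.

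*Vcam1*, an adhesion receptor of stroma and activated endothelium, had 933 and 1466 CPM in the controls. Its range was 83.2 to 188 CPM for met and 4.17 to 280 CPM for non-met. Its adjusted P by voomLmFit was 0.165 for met and 0.0901 for non-met against control. *Kitl*, which encodes stem cell factor, was at 162 and 603 CPM in the controls, 338, 37.8 and 30.4 CPM in met and 52.6 to 255 CPM in non-met, so its groups overlap. The summed level of the 8 markers of this stroma was 4255 and 13185 CPM in the controls, 911 to 3365 CPM in non-met and 392 to 2240 CPM in met. That list includes *Lepr* itself, and *Cxcl12* alone made up 3443 and 10089 CPM of the sums in the controls and 1663 of the 2240 CPM in met 1. *Vcam1* was also the gene whose log2 CPM followed *Lepr* most closely over the 11 libraries (Pearson r = 0.907), ahead of *Ccdc88a* (r = 0.890) and *Btbd7* (r = 0.881) among 11341 genes.

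**Figure D4:**
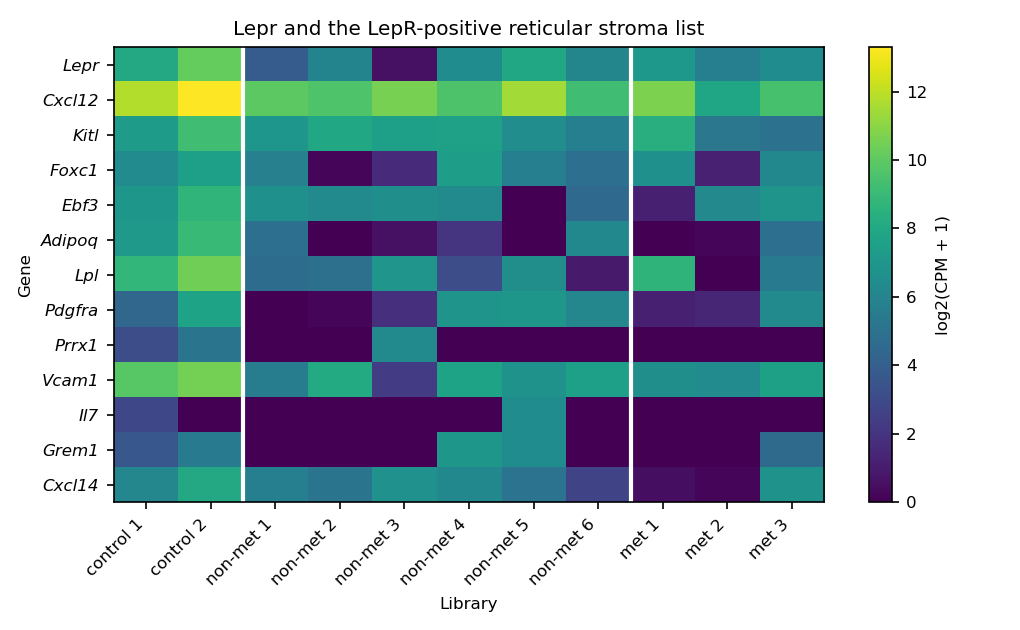
Level (colour, log2 of CPM + 1) of *Lepr* and 12 genes of *Lepr*-positive stroma (vertical axis) in each library (horizontal axis, white lines between control, non-met and met). *Lepr*, *Cxcl12* and *Vcam1* are brightest in the 2 controls, and *Cxcl12* there is at 3443 and 10089 CPM.

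Osteoblast and osteocyte genes other than *Bglap* gave 1 call by voomLmFit among 9 tested genes, lower for met against control (0.511% of all genes were called lower), and 0 in each of the other 2 comparisons. That gene, *Phex*, an enzyme of osteocytes, was at 26.5 and 201 CPM in the controls at 0 to 19.4 CPM in non-met and at 0 reads in 3 of 3 met libraries (adjusted P = 0.0373 for met against control). The quasi-likelihood test gave adjusted P = 0.886 for it, and a term for the library sets 0.473. Of 21 alternatives, 8 called it. *Spp1*, osteopontin, was at 94.3 to 359 CPM in met, 16.4 to 436 in non-met and 67.5 to 76.3 in control, and *Ibsp* at 0 to 36.4, 3.17 to 327 and 0 to 29.8 CPM.

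Of the mural members, *Pdgfrb* had the highest mean log2 RPKM over the libraries (3.96). It lies on chromosome 18 and encodes the receptor through which endothelial PDGF-B recruits pericytes. It was at 165 and 330 CPM in the controls, at 1.59, 74.9 and 348 CPM (lowest, median and highest) in non-met, and at 107, 80.9 and 64.2 CPM in met 1, 2 and 3. All met libraries were below both controls, an order that 14.2% of all genes share, whereas the non-met libraries spanned the controls and included 1 read in non-met 4. The log2 fold change was 0.35 (SE 1.17, voomLmFit adjusted P = 0.973) for met against non-met, -1.26 (SE 0.80, adjusted P = 0.517) for met against control and -1.61 (SE 0.92, adjusted P = 0.356) for non-met against control. The first turned to -0.67 by the quasi-likelihood test, -0.89 by DESeq2 (adjusted P = 1.00 in both) and -0.14 without non-met 4.

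Its ligands and sister receptor gave 0 of 4 calls by voomLmFit in each comparison. DESeq2 called 1 higher for met and 1 higher for non-met against control, where it called 1.91% and 2.23% of all genes in either direction. *Pdgfd* was at 0 reads in both controls, at 16.8 to 80.2 CPM in met and at 0 to 58.4 CPM in non-met. *Pdgfb*, the endothelial ligand, was at 75.9 to 210 CPM in met, 25.8 to 301 in non-met and 309 to 421 in control (adjusted P = 0.996 for met against non-met, and 0.151 and 0.153 against control). All 9 burdened libraries were below both controls, an order that 3.03% of all genes share, with non-met 5 at 301 CPM close to control 2 at 309 CPM. *Pdgfra*, a receptor of reticular stroma, was at 1.22 to 81.8 CPM in met, 0 to 132 in non-met and 19.7 to 210 in control.

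*Rgs5* (chr1:169655501-169695813), a regulator of G-protein signalling used as a pericyte marker, was either well detected or absent. It was at 78.1 and 65.7 CPM in the controls, at 0, 53 and 132 CPM (lowest, median and highest) in non-met, and at 130, 49.1 and 0 CPM in met 1, 2 and 3. Non-met 4 and 6 and met 3 held no read, while the other 8 libraries were at 34.5 CPM or above. Met 3 holds 8516567 counts in the rows used, so its 0 reads allow up to 0.352 CPM. The log2 fold change was -0.23 (SE 2.55, voomLmFit adjusted P = 0.992) for met against non-met, -3.42 (SE 2.28, adjusted P = 0.544) for met against control and -3.19 (SE 1.71, adjusted P = 0.334) for non-met against control. Without met 3 the first became 3.52 (adjusted P = 0.618) and the second 0.22 (adjusted P = 0.980). The third turned to 0.41 (adjusted P = 0.904) without the 3 shallowest libraries and to 0.10 (adjusted P = 0.987) with a term for the library sets. Over the 11 libraries the genes most like it in log2 CPM were *Adprh* (Pearson r = 0.920), *Cuedc2* (r = 0.896) and *Gdpd2* (r = 0.893), and its r with *Col1a1* was 0.845. Each of these r is taken over libraries that share depth and detection, and with 11341 genes searched they are descriptions.

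*Acta2* (chr19:34240336-34255585), smooth muscle actin, was at 5.74 and 0.205 CPM in the controls, at 0.177, 1.37 and 39.7 CPM (lowest, median and highest) in non-met, and at 296, 1.32 and 0.352 CPM in met 1, 2 and 3. Met 1, at 727 reads, is far above the other libraries and non-met 3 is next at 152 reads. The log2 fold change was 0.49 (SE 2.33, voomLmFit adjusted P = 0.979) for met against non-met, 3.31 (SE 3.01, adjusted P = 0.679) for met against control and 2.82 (SE 2.60, adjusted P = 0.533) for non-met against control. Without met 1 the first turned to -1.90 (adjusted P = 0.820). All 3 turned, to -0.47, -1.17 and -0.70, once the library sets were a term of the fit.

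*Cspg4* (chr9:56865104-56899870), the NG2 proteoglycan of pericytes, was at 3.18 and 38.3 CPM in the controls and at 161 CPM in met 1. Met 2, met 3 and 4 of the 6 non-met libraries held no read, and the highest non-met value was 1.59 CPM, from 1 read. As measured, all non-met libraries were below both controls, an order that 6.25% of all genes share. At the depth of non-met 4, however, 3 reads are 4.76 CPM, which is above control 1, so that library cannot be placed below it and the separation rests on a value under the floor. With that limit, the difference in mean log2 CPM was -4.04 (exact permutation P = 0.0357, the smallest that 28 splits allow, in 1 of 27 tests), and the fitted log2 fold change was -4.21 (SE 1.96, voomLmFit adjusted P = 0.281). For met against non-met it was 0.97 (SE 2.46, adjusted P = 0.958), 6.74 by the quasi-likelihood test (adjusted P = 0.564) and -2.87 without met 1 (voomLmFit adjusted P = 0.682). For met against control it was -3.25 (SE 2.61, adjusted P = 0.631), and it turned to 1.69 by the quasi-likelihood test.

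Some mural genes had their highest level in met 1. Of the 4 mural members, *Acta2* and *Cspg4* had their highest CPM there, as had the collagen *Col3a1* and 3 of 12 tested genes of the wider mural list, where 11.8% of all genes have their highest CPM in met 1. Among those 3, *Myh11*, smooth muscle myosin, was at 122 CPM in met 1, 7.16 in met 3 and 0 in met 2. *Tagln* was at 103 CPM in met 1 and 29 in met 2, and *Ndufa4l2* at 131 CPM in met 1 and 0 in the other 2. Other genes of the list did not peak there. *Mylk*, the kinase of myosin light chain, was at 69.1, 48.2 and 53.5 CPM in met 1, 2 and 3, below the 98.3 to 344 CPM of non-met and the 178 and 314 CPM of the controls. Of all genes, 0.444% had all met below all non-met libraries and 14.2% had all met below both controls. *Des*, *Cnn1*, *Itga7* and *Higd1b* had 0 reads in met 1, as they had in control 1. The summed level of 12 mural markers, among them the 4 members, *Abcc9* and *Kcnj8*, was 2576 to 2960 CPM in the controls, 1475 to 2336 in non-met and 2741, 1305 and 1353 CPM in met 1, 2 and 3. *Abcc9* alone made up 2046 and 1435 CPM of the sums in control 1 and 2, and *Kcnj8* a further 619 and 496 CPM. In met 1, 2 and 3 *Abcc9* made up 1227, 841 and 888 CPM. The 4 members together held 252 and 434 CPM in the controls and 693, 131 and 64.6 CPM in met. The sum therefore says little about the other mural genes. The sort selected CD31hi EMCNhi cells and excluded CD45- and Ter-119-positive cells, doublets and dead cells. The part of mural cells in these values was not tested.

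The mural list held calls in both directions. By voomLmFit, 1 of 12 genes was called higher for met against non-met (0.285% of all genes were called higher). For met against control 1 was called higher (0.686%) and 1 lower (0.511% of all genes were called lower), and for non-met against control 0. The gene called higher was *Mcam* (CD146), which endothelium also makes, at 1004 to 1625 CPM in met, 427 to 949 in non-met and 155 to 324 in control. Its log2 fold change was 1.10 (SE 0.25, voomLmFit adjusted P = 0.0429) for met against non-met and 2.65 (SE 0.54, adjusted P = 0.00938) for met against control. With the mouse pool as a block the first had adjusted P = 1.00, and 8 of 22 alternatives called it. The second was called by 19 of 21 alternatives and had adjusted P = 0.320 with a term for the library sets. *Abcc9*, a subunit of a potassium channel, was at 841 to 1227 CPM in met, 510 to 1708 in non-met and 1435 to 2046 in control. Its log2 fold change for met against control was -1.13 (SE 0.17, voomLmFit adjusted P = 0.000178), and 15 of 21 alternatives called it, the quasi-likelihood test not among them (adjusted P = 0.978), nor DESeq2 or limma-trend (adjusted P = 1.00 each), nor the fit with a term for the library sets (adjusted P = 0.409).

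**Figure D5:**
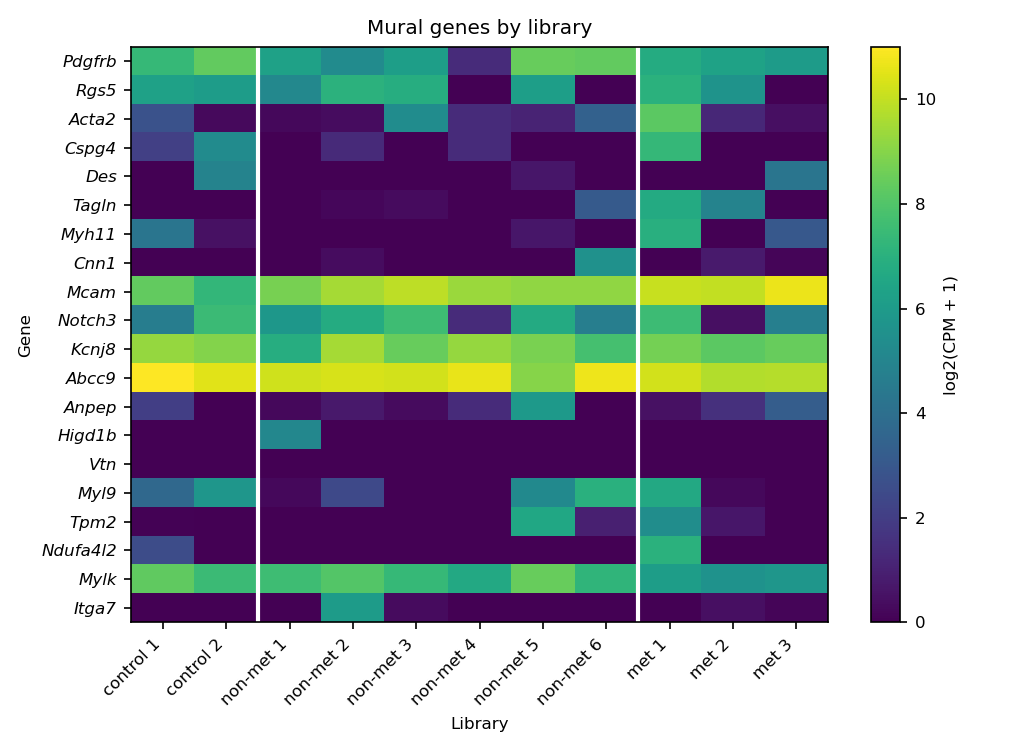
Level (colour, log2 of CPM + 1) of the 4 mural members and 16 other mural genes (vertical axis) in each library (horizontal axis, white lines between control, non-met and met). *Acta2*, *Cspg4*, *Tagln*, *Myh11* and *Ndufa4l2* are bright in met 1, whereas *Mcam* and *Abcc9* are bright in every library.

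Of the 9 members tested, 2 (*Col1a1* and *Col5a1*) exceeded 3 reads in all 11 libraries, as did 20.0% of all genes tested. The number of members above 3 reads was 8 and 9 in the controls, 4 to 8 in non-met and 6 to 8 in met. Ordered by mean log2 RPKM over the 11 libraries, a scale on which genes can be compared, the levels ran *Col1a2* (3.98), *Pdgfrb* (3.96), *Lepr* (3.41), *Col1a1* (3.41), *Rgs5* (3.31), *Col5a1* (2.70), *Col3a1* (2.26), *Acta2* (0.89) and *Cspg4* (-2.33). The order was not the same in each group. By mean RPKM the controls were led by *Lepr* (105) and *Col1a2* (83.1), and non-met by *Col1a2* (39.0) and *Rgs5* (32.5). Met was led by *Acta2* (55.7, from 166 RPKM in met 1), *Col3a1* (33.4) and *Rgs5* (33.0), with *Col1a2* at 12.3. No neighbours in the order over all libraries differed by more than the SD of their difference over the libraries. The collagens did not keep step, with Pearson r over 11 libraries of -0.10 for *Col1a1* and *Col1a2*, 0.39 for *Col1a1* and *Col3a1* and -0.38 for *Col1a2* and *Col3a1*.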

How the data were processed

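The authors prepared SMART-Seq v4 libraries from sorted cells, aligned 75-base read pairs to mm10 with Rsubread and counted reads per Entrez gene with featureCounts. The deposited values are raw counts, with no normalisation, and the 11 single-library tables equal the series table. Whether strand was used is not given in the sources used here. Symbols and coordinates came from RefSeq (GRCm38.p6) for 25275 of 27179 rows and from GENCODE for 17. Unnamed entries (1887), ribosomal RNAs (36) and predicted genes (1793) were dropped, which held 1.94% to 15.7% of a library's counts, and 23463 rows remained. CPM and RPKM use the counts of those rows.

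As the authors describe, filterByExpr (minimum count 10, minimum total 15; 11948 genes) and voomLmFit with sample weights were used, from edgeR 4.0.16 with limma 3.58.1. TMM scaling and 1 model of the 3 groups were chosen here. Adjustment was by Benjamini-Hochberg, threshold 0.05. Log2 CPM has a prior count of 2 and uses TMM-scaled library sizes, whereas CPM and RPKM use unscaled ones. Exact two-sided permutations ran over 84, 10 and 28 splits. The members and lists were chosen with earlier results of these data known. From each list were named up to 4 genes past the threshold in a comparison, and, for a comparison with none, the 2 of highest mean CPM. *Kitl*, *Myh11*, *Tagln* and *Ndufa4l2* were named after their values were seen. *Loxl2*, *Loxl3*, *Loxl4*, *Pdgfd*, *Kcnj8*, *Mylk*, *Des*, *Cnn1*, *Itga7* and *Higd1b* were also named outside this rule. The genes most like a member were sought among those with a mean of at least 5 CPM. Same-pool libraries share their animals, which is the pairing; deviations of same-pool libraries from their group means had Spearman correlations of -0.02 to 0.02 across 10887 genes. Alternatives were RLE and library-size scaling, no filter, a mean of at least 5 CPM, edgeR quasi-likelihood, DESeq2 1.42.0, limma-trend, no sample weights, the pool as a block, and each library left out. A term for the library sets and a fit without the 3 shallowest libraries were chosen after seeing the data. The fits were first run on simulated counts with 1 spread for all genes, no mouse pools and no genes lost from single libraries. That run therefore does not test the fits on values like those of the members.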

Additional observations from a re-analysis of the deposited data

How the results depend on the processing

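No member was called under any alternative except *Lepr* without control 1, so leaving out 1 library gave 0 to 0 members called for met against non-met and 0 to 1 for each comparison with the controls. Of 575 recomputed fold changes of the members, 521 kept their sign and their side of the threshold, 52 changed sign and 2 became called; none passed the threshold after changing sign. RLE and library-size scaling changed no member's sign. The mouse pool as a replicate block, fitted for met against non-met only, called 0 members and changed the sign of none of the 8 it tested, with no value for *Cspg4*.

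Genes called over all genes moved more. For met against non-met the 51 calls became 79 with no filter, 16 by the quasi-likelihood test, 324 by DESeq2, 2 by limma-trend, 27 with the mouse pool as a replicate block, 9 with a term for the library sets, 25 without the 3 shallowest libraries and 16 to 87 without 1 library. For met against control the 143 became 429, 10, 228, 9, 274 with no sample weights, 4 with the set term, 71 without the shallow libraries and 36 to 293 without 1 library. For non-met against control the 76 became 160 by library size, 184, 35 with a mean of at least 5 CPM, 14, 266, 8, 140, 20, 33 and 33 to 228. The share called higher was 66.7%, 57.3% and 28.9%, and became 53.3% for the first with RLE, and 46.3% and 13.8% for the others by library size, which shifted the median of all genes from -0.09 to -0.23 and from -0.33 to -0.54.

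For met against non-met, *Col1a1* (0.25) turned to -0.22 by quasi-likelihood, -0.38 by DESeq2, -0.34 with no sample weights, -0.49 without the shallow libraries and -0.21 to 0.70 without 1 library. *Col3a1* turned to -0.49 without the shallow libraries. *Col5a1* turned to -0.089 with the set term and -0.061 to 2.40 without 1 library. *Pdgfrb* turned to -0.67 by quasi-likelihood, -0.89 by DESeq2 and -0.14 to 1.03 without 1 library. *Rgs5* turned to 0.018 by limma-trend, 0.87 with the set term and -1.86 to 3.52 without 1 library. *Acta2* turned to -0.47 with the set term and -1.90 to 2.33 without 1 library, and *Cspg4* ran from -2.87 to 3.73 without 1 library.

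For met against control, *Col1a1* turned to 1.04 with the set term and -0.61 to 0.11 without 1 library. *Col3a1* (-0.24) turned to 0.84 by quasi-likelihood, 0.75 by DESeq2, 0.23 by limma-trend, 0.063 with no sample weights, 4.95 with the set term and -1.03 to 0.59 without 1 library. *Col5a1* ran from -1.76 to 0.85 and *Rgs5* from -4.62 to 0.22 without 1 library, with 0.98 for *Rgs5* under the set term. *Acta2* turned to -1.17 with the set term and -0.14 to 5.09 without 1 library, and *Cspg4* to 1.69 by quasi-likelihood and 1.58 by DESeq2.

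For non-met against control, *Col1a1* turned to 0.039 by quasi-likelihood, 0.10 by DESeq2, 0.031 with no sample weights, 0.19 with the set term and 0.20 without the shallow libraries. *Col3a1* turned to 0.036 and 0.14, and *Rgs5* to 0.10 and 0.41, with the set term and without the shallow libraries. *Acta2* turned to -0.70 with the set term and -0.72 to 3.62 without 1 library. The causes were not tested. The floor is highest in non-met 4, 5 and 6, where 3 reads stand for 4.76, 1.74 and 2.87 CPM. It is 0.531 and 0.404 CPM in non-met 1 and 2, below the 1.22 CPM of met 1.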
